A study of Mus musculus with 6 samples.

Results

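Alternative splicing lets a gene give several mRNAs. The inclusion frequency of an event is read here as the share of the gene's transcripts that carry the alternative sequence. It runs from 0 (always skipped) to 1 (always included), and the formula behind the values was not stated by the submitters. The events described here are those whose inclusion differed by more than 0.5 between the 2 control libraries of the study, called discordant below. They were found by joining the 6 libraries on gene symbol and on the order of events within a gene, keeping genes with the same number of events in every library. Of 4658 joined events in 2685 genes, 313 events in 229 genes met the rule, or 6.72% of the events. Because this difference chose the events, their values in the control libraries are given as a description. The knockdown libraries were not used by the rule.

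The cells were primary mouse medullary thymic epithelial cells (mTECs), defined by sorting as CD45- EpCAM+ Ly51- I-A/E+ and grown over human dermal fibroblasts in a fibrin gel. All of them were infected with a pLKO.3G lentivirus carrying eGFP and a short hairpin RNA, and DAPI- I-A/E+ GFP+ cells were sorted 5 days later. The control group (Ctr, 2 libraries) had a hairpin against LacZ. The Raver2 knockdown (2 libraries) and the Setd2 knockdown (2 libraries) had hairpins sh1 and sh2 against the named gene, so that the 2 libraries of a knockdown differ in their hairpin while the Ctr libraries do not. The labels give neither the strain or age of the mice nor whether libraries came from separate animals or cultures, so the spread within a group may be technical. The files give fractions without read counts, so their depth is unknown, and an event's exon and sequence are not known here.

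mTECs present proteins of peripheral tissues to developing T cells. The regulator Aire switches on many of these tissue-restricted genes, and each such gene is known to be transcribed in only a small share of mTECs at a time. Genes for translation, RNA processing, vesicle traffic and the cytoskeleton are transcribed in nearly every cell. Raver2 binds RNA and works with PTB, a protein that represses splicing of many exons, and Setd2 is the methyltransferase that places trimethylation on lysine 36 of histone H3 along transcribed genes. Neither target gene had a joined event. The fractions do not give a gene's level, so the knockdown could not be checked. Of 10 fixed markers per cell type, events were joined for 2 of medullary epithelium (Aire and Cd74), 2 of fibroblasts (Postn and Fn1) and 3 of leukocytes (Ptprc, Cd8a and Lck). An event says nothing of a gene's level, so these do not check the label.

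The discordant events differed by most of the scale in many cases. Their median difference between the Ctr libraries was 0.961, and 167 of 313 differed by more than 0.9. Both Ctr values lay at an end of the scale, below 0.01 or above 0.99, in 138 events, a single Ctr value did in 144, and neither in 31. Inclusion was higher in Ctr library 1 in 145 events and in Ctr library 2 in 168. Of the 313 events, 91 belonged to genes with a single event. Another 29 repeated an earlier event of their gene, with values equal or complementary within 0.001 in every library, which leaves 284 separate measurements.

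**Figure D1:**
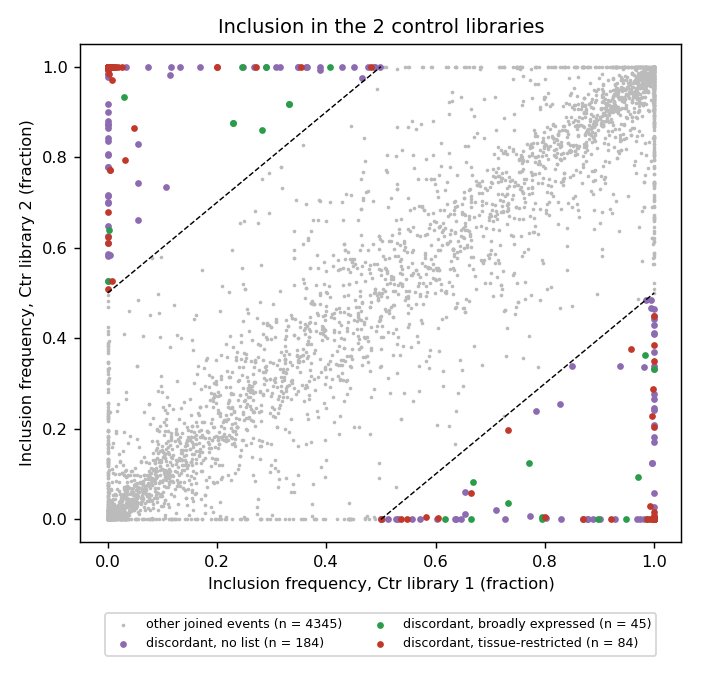
Inclusion frequency (fraction) of the 4658 joined events in Ctr library 1 (x axis) and Ctr library 2 (y axis), 1 point per event; dashed lines mark the difference of 0.5. The 313 discordant events, coloured by gene class, lie mostly along the edges and in the upper left and lower right corners.

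Just inside the threshold, event 2 of Ldb3, a Z-disc protein of muscle, had 0.501 in Ctr library 1 and below 0.01 in library 2, and Cyhr1 event 2 had 0.502 and below 0.01. Just outside it, event 2 of Cd2bp2, a component of the spliceosome, had above 0.99 and 0.501, and event 1 of Fam49a had 0.725 and 0.227.

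Every other pair of libraries also held such differences, and the pairs of a Ctr with a knockdown library held the most. The Ctr libraries differed by more than 0.5 in 313 events, the Raver2 hairpins in 298 and the Setd2 hairpins in 345. Between Ctr and knockdown libraries the 8 pairs gave 383 to 399 events, and between Raver2 and Setd2 libraries the 4 pairs gave 317 to 347.

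The genes of the discordant events were described with 16 family lists drawn up by symbol, 8 of tissue-restricted and 8 of broadly expressed genes, with 1785 of the 2685 genes in none. Discordance was more common in the tissue-restricted lists. Of 538 events in 289 tissue-restricted genes, 84 were discordant between the Ctr libraries (15.6%), against 45 of 1127 events in 611 broadly expressed genes (3.99%) and 184 of 2993 events in genes of no list (6.15%). Counted by gene, 55 of 289 tissue-restricted genes (19.0%) and 29 of 611 broadly expressed genes (4.75%) held at least 1 discordant event. The hairpin libraries, which the rule did not use, gave the same order over all joined events. Among the 2000 events with no library below 0.01 or above 0.99, the tissue-restricted share minus the broadly expressed share was 1.20 percentage points in Ctr, -1.0 for Raver2 hairpins, a reversed direction, and 3.24 for Setd2 hairpins. Only 12 of these 2000 events were discordant in Ctr. Of the rest, 0.352% were discordant between Raver2 hairpins and 0.604% between Setd2 hairpins. These differences thus rest on few events, and the reversal is not read as a result. The Ctr values that chose the 313 events also decide which events are among the 2000. Raver2 hairpins were discordant in 11.0% of tissue-restricted and 2.93% of broadly expressed events, and Setd2 hairpins in 13.01% and 5.06%. Outside the 313 events the order was also the same, at 8.15% and 1.94% for Raver2 hairpins and 12.1% and 3.97% for Setd2 hairpins. The lists were not compared by a test, since events are not replicates.

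Values at the ends of the scale moved with gene class. In the 4 knockdown libraries, 53.1% of values of tissue-restricted genes and 28.7% of those of broadly expressed genes lay below 0.01 or above 0.99. Among events with none of the 4 knockdown libraries at an end, 15 of 151 tissue-restricted events (9.93%) and 7 of 650 broadly expressed events (1.08%) were discordant in Ctr. With all 4 at an end the shares were 18.3% and 9.50%. The first of these sets still holds events with a Ctr value at an end, and without those the difference in Ctr was the 1.20 points given above. In genes with a single event, where no order within the gene is assumed, they were 11.4% and 2.01%. Tissue-restricted genes also made up 56 of the 213 genes left out because a library lacked them or listed another number of events (26.3%), against 10.8% of the joined genes. The part of transcript abundance or coverage in these shares was not tested.

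**Figure D2:**
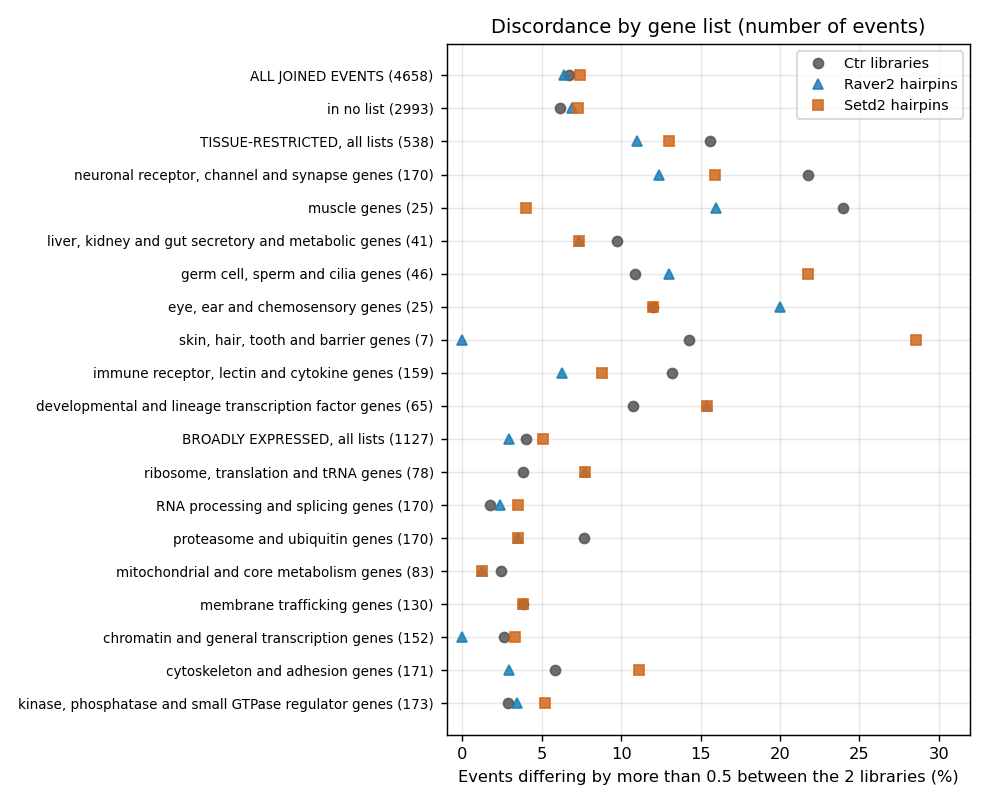
Share of events (%) that differed by more than 0.5 between the 2 libraries of a group, by gene list, with the number of events in brackets; circles are Ctr, triangles Raver2 hairpins and squares Setd2 hairpins. In all 3 groups the share over all tissue-restricted lists (15.6%, 11.0% and 13.01%) lies above that over all broadly expressed lists (3.99%, 2.93% and 5.06%).

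Neuronal receptor, channel and synapse genes held the most discordant events, 37 of 170 (21.8%), with 12.4% for Raver2 hairpins and 15.9% for Setd2 hairpins. In Npy2r, a receptor for neuropeptide Y, the event had below 0.01 in Ctr library 2 and above 0.99 in the other 5 libraries. In Pcdh8, a protocadherin of synapses, it had above 0.99 in Ctr library 1 and below 0.01 in the other 5. Event 6 of Kcnj15, an inward rectifier potassium channel, had above 0.99 in Ctr library 2 alone and below 0.01 elsewhere. In each of these genes a single control library stood apart from all others. Event 3 of Grip1, a scaffold of glutamate receptors, instead had above 0.99 and below 0.01 in Ctr, 0.486 and 0.170 with the Raver2 hairpins and 0.832 and 0.486 with the Setd2 hairpins.

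Snap91, an endocytic adaptor of synapses on chromosome 9 (86765923 to 86880654, minus strand, mm10), had 4 discordant events among 6. Its event 1 had 0.199 and above 0.99 in Ctr, 0.224 and 0.910 with the Raver2 hairpins, and 0.605 and 0.561 with the Setd2 hairpins, and event 3 held the same values. The Raver2 hairpins were thus also far apart, in the same order as the controls, while the Setd2 hairpins lay close together between them. Event 2 of Snap91 had above 0.99 in Ctr library 2 and below 0.01 in the other 5 libraries. Celf3, a neural splicing regulator, had 3 discordant events of 4 that were equal or complementary and count as 1 measurement. Its event 1 had above 0.99 in Ctr library 1 and below 0.01 in the other 5.

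Muscle genes had 6 discordant events of 25 (24%), the highest share of the 16 lists, with 16% for Raver2 hairpins (4 of 25) and 4% (1 of 25) for Setd2 hairpins. Of the 6, event 1 of Myh14 is of a non-muscle myosin that its symbol placed in this list. Events 1 and 2 of Mybpc1 were complements. Counted by separate measurement, the share in this list was 29.4% of 17. In Myh6, a myosin heavy chain of heart muscle, the single event had 0.0263 and above 0.99 in Ctr, above 0.99 and 0.0112 with the Raver2 hairpins, and above 0.99 and 0.0401 with the Setd2 hairpins. Every group thus held a library near each end. Event 2 of Mybpc1, a myosin-binding protein of skeletal muscle, had below 0.01 in Ctr library 1, 0.969 in library 2 and 0.905 or more in all 4 knockdown libraries.

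Immune receptor, lectin and cytokine genes had 21 of 159 events discordant (13.2%). Fcer2a, the low-affinity IgE receptor CD23 of B cells (chromosome 8, 3681737 to 3694175, minus strand, mm10), had 4 of 5. All 4 lay below 0.01 in Ctr library 1 and above 0.99 in Ctr library 2, and at 0.940 or more in every knockdown library. In Klrc1, an inhibitory receptor of natural killer cells, event 1 also had below 0.01 in Ctr library 1 and above 0.99 in the other 5. Event 2 of Cd40, a receptor that mTECs themselves use for their maturation, had above 0.99 and below 0.01 in Ctr, 0.399 and 0.286 with the Raver2 hairpins and 0.370 and 0.0597 with the Setd2 hairpins. Event 1 of Ccr6, a chemokine receptor, had below 0.01 and above 0.99 in Ctr and 0.733 to 0.978 in the knockdown libraries. Klrc1 and its neighbour Klrc2 are close relatives, so reads may be shared between them.

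Among secreted and metabolic genes of liver, kidney, gut and glands, 4 of 41 events were discordant (9.76%). Event 1 of Csn2, the milk protein beta-casein, had above 0.99 in Ctr library 1 and with Raver2 sh1, and below 0.01 in the other 4 libraries. In Kng1, a kininogen of liver, the event had below 0.01 in Ctr library 1 and with Setd2 sh2, and above 0.99 in the other 4. In Calca, which encodes calcitonin and CGRP by alternative splicing, it had 0.605 in Ctr library 1 and below 0.01 in the other 5.

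Of germ cell, sperm and cilia genes, 5 of 46 events were discordant (10.9%), with 13.04% for Raver2 hairpins and 21.7% for Setd2 hairpins. Event 3 of Catsper3, a subunit of the sperm calcium channel, had below 0.01 and above 0.99 in Ctr and with the Raver2 hairpins, and 0.0730 and above 0.99 with the Setd2 hairpins. In Tdrd6, a germ granule protein, the event had 0.664 in Ctr library 1, 0.664 with Setd2 sh2 and between 0.0513 and 0.156 elsewhere.

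Developmental transcription factor genes had 7 of 65 events discordant (10.8%). In Foxp2, a forkhead factor of brain and lung, the event had above 0.99 and 0.385 in Ctr and below 0.01 in all 4 knockdown libraries.

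This list also holds Aire, the regulator of tissue-restricted expression itself (chromosome 10, 78030022 to 78043610, minus strand, mm10). A single one of its 9 events was discordant. Event 7 of Aire had above 0.99 and below 0.01 in Ctr, below 0.01 and above 0.99 with the Raver2 hairpins, and below 0.01 and above 0.99 with the Setd2 hairpins. The other 8 events of Aire differed by at most 0.010 between the Ctr libraries. Neither event of Ptbp1, which encodes PTB, was discordant, with 0.307 and 0.303 in event 1 and 0.956 and 0.895 in event 2. Raver1 and Ptbp2 had no joined event.

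Among broadly expressed lists, RNA processing and splicing genes had the lowest share, 3 of 170 events (1.76%), in Nxf2, Rbfox2 and Cdk12. Nxf2, an RNA export factor of germ cells, is tissue-restricted despite the list it falls in. The others were event 1 of Rbfox2, a splicing regulator, with 0.289 and above 0.99 in Ctr, and the event of Cdk12, a kinase of RNA polymerase II, with below 0.01 and 0.639. Mitochondrial and core metabolism genes had 2 of 83 (2.41%), chromatin and transcription genes 4 of 152 (2.63%), and kinase, phosphatase and GTPase regulator genes 5 of 173 (2.89%). Ribosome, translation and tRNA genes and membrane trafficking genes each had 3.85%. Cytoskeleton and adhesion genes had 10 of 171 (5.85%), and proteasome and ubiquitin genes 13 of 170 (7.65%), which is above the 6.72% of all events. Counted by separate measurement, the proteasome and ubiquitin share was 6.37%, below the 6.67% of all. The 13 include events 1, 2 and 3 of Rnf32, described below as a gene of testis and so no broadly expressed gene. All 3 events of Dnmt3l, a gene of germ cells and so no broadly expressed gene, are among the 4 of chromatin and transcription genes. Events 2 and 3 of Dnmt3l were equal and count as 1 measurement.

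All 3 translation events were those of Pars2, the prolyl-tRNA synthetase of mitochondria. Its event 3 had above 0.99 and below 0.01 in Ctr, below 0.01 and above 0.99 with the Raver2 hairpins, and above 0.99 and below 0.01 with the Setd2 hairpins. Event 3 of Mfn2, which fuses mitochondria, had above 0.99 in Ctr library 2 and below 0.01 in the other 5 libraries. Event 2 of Arpc4, a subunit of the Arp2/3 actin nucleator, had below 0.01 in Ctr library 2 and above 0.99 in the other 5. Event 3 of Ndufs1, a subunit of respiratory complex I, had 0.617 and below 0.01 in Ctr, and 0.198 to 0.459 in the knockdown libraries.

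The discordant events were more often discordant between hairpins than other events were. Of the 313, 77 differed by more than 0.5 between the Raver2 hairpins (24.6%), against 6.40% of all joined events and 5.09% of the 4345 others. Between the Setd2 hairpins 74 did (23.6%), against 7.41% of all and 6.24% of the others. In 21 events (6.71%, against 1.98% of all) the hairpins of both targets were discordant as well, and in 183 (58.5%) neither pair was. Seen from the other side, 25.8% of the events discordant between Raver2 hairpins and 21.4% of those discordant between Setd2 hairpins were also discordant in Ctr. These 3 pairs share no library.

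The share did not rise evenly with the difference between the Ctr libraries. Events with a Ctr difference of at most 0.01 were discordant between Raver2 hairpins in 6.16% and between Setd2 hairpins in 6.66%. For differences of 0.01 to 0.05 the shares were 2.07% and 2.99%, and for 0.3 to 0.5 they were 13.7% and 18.6%. Above the threshold they were 27.8% and 24.4% for 0.5 to 0.7, and 20.96% and 24.6% for 0.9 to 1.

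**Figure D3:**
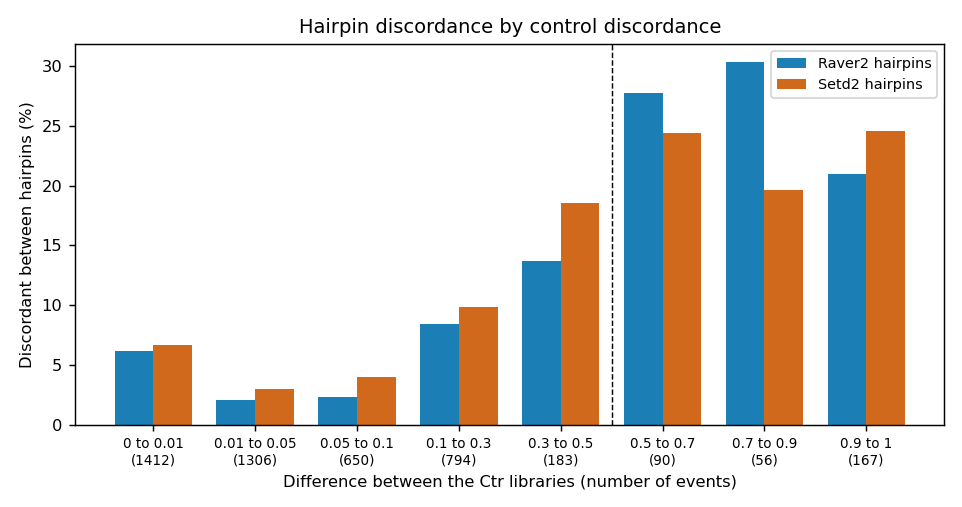
Share of events (%) that differed by more than 0.5 between the hairpins of each target (bars), by the difference between the Ctr libraries (x axis, fraction, number of events in brackets); the dashed line marks the threshold of 0.5. The shares are lowest for Ctr differences of 0.01 to 0.05, at 2.07% and 2.99%, and above the threshold lie between 19.6% and 30.4%.

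In the 21 events discordant in all 3 groups, which lie in 18 genes, the hairpin number did not fix the side. The libraries of hairpin 1 were the higher ones for both targets in 2 events, those of hairpin 2 in 6, and the sides were opposite in 13. Event 5 of Kif21a, a kinesin motor, had below 0.01 in library 1 and above 0.99 in library 2 of every group. In Emilin3, an extracellular matrix glycoprotein, the event had above 0.99 in Ctr library 1, Raver2 sh2 and Setd2 sh1, and below 0.01 in the other 3. Event 2 of Sez6l2, a neuronal membrane protein, had below 0.01 in those same 3 libraries and above 0.99 in the other 3, and its event 1 was the complement. Event 1 of Sema6d, an axon guidance semaphorin, had below 0.01 and above 0.99 in Ctr, 0.0604 and above 0.99 with the Raver2 hairpins, and below 0.01 and above 0.99 with the Setd2 hairpins.

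**Figure D4:**
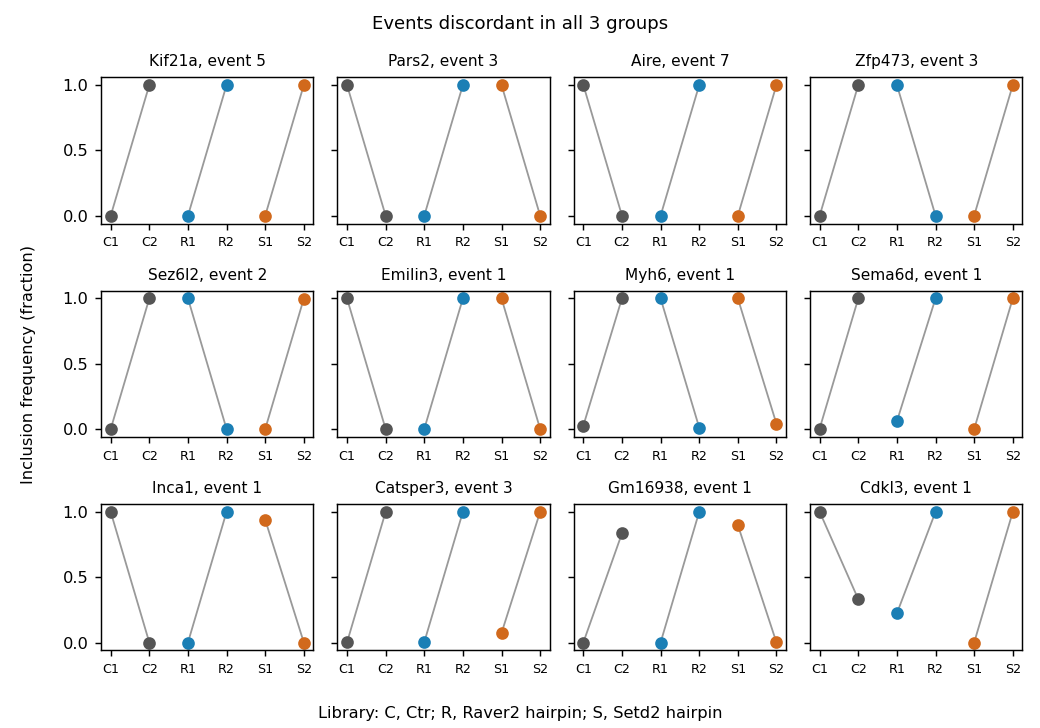
Inclusion frequency (fraction, y axis) in each library (x axis: C, Ctr; R, Raver2 hairpin; S, Setd2 hairpin) for 12 events discordant in all 3 groups, with lines joining the 2 libraries of a group. Aire event 7 and Myh6 event 1 hold a library near 0 and a library near 1 in every group.

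The knockdown libraries as a whole sided with neither control. All 4 were nearer to Ctr library 1 in 68 events (21.7%) and nearer to Ctr library 2 in 74 (23.6%), and the rest were divided. By library, 46.0% to 51.4% of the 313 events lay nearer to Ctr library 1. The range over the 4 knockdown libraries had a median of 0.536, against 0.0774 in other events. The 4 lay all below 0.1 in 50 events, all above 0.9 in 28, and between 0.1 and 0.9 with a range of at most 0.2 in 8 (2.56%, against 25.1% of other events). The remaining 227 (72.5%, against 38.4% of other events) were mixed.

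Events in which 1 library stood more than 0.5 from all 5 others, while those lay within 0.1 of each other, numbered 36 for Ctr library 1 and 38 for Ctr library 2. They numbered 15 and 28 for Raver2 sh1 and sh2, and 26 and 11 for Setd2 sh1 and sh2. For Ctr library 1, 20 of 36 lay in tissue-restricted genes and 3 in broadly expressed genes, and for Ctr library 2 these were 7 and 3 of 38. For Raver2 sh1 and sh2 they were 3 and 0 of 15 and 4 and 2 of 28. For Setd2 sh1 they were 5 and 9 of 26, and for Setd2 sh2 4 and 1 of 11. Of all 4658 events, 538 lay in tissue-restricted and 1127 in broadly expressed genes, so the counts of the 2 classes are not compared directly.

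**Figure D5:**
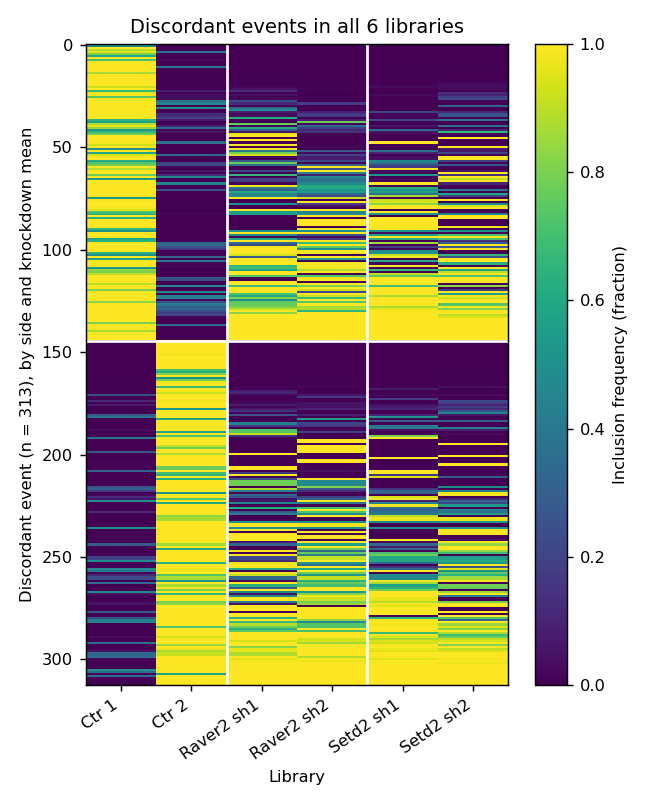
Inclusion frequency (colour, fraction) of the 313 discordant events (rows) in the 6 libraries (columns), with the 145 events higher in Ctr library 1 above the white line and the 168 higher in Ctr library 2 below it, ordered by the mean of the knockdown libraries. Blocks in which all 4 knockdown libraries match 1 control lie at the ends of each part, and mixed events between them.

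A few events had steady intermediate values in the knockdown libraries. Event 1 of Trpc4, a cation channel (chromosome 3, 54156035 to 54318471, mm10), had above 0.99 and below 0.01 in Ctr and 0.727, 0.736, 0.748 and 0.728 in the 4 knockdown libraries. Its event 2 had below 0.01 and above 0.99 in Ctr and 0.460 to 0.508 in the knockdown libraries. Both controls of Trpc4 thus stood at the ends, on opposite sides of 4 libraries that were close together. Event 1 of Ifi202b, an interferon-inducible gene, had 0.499 in Ctr library 1, above 0.99 in library 2 and 0.498 in all 4 knockdown libraries. Ifi202b belongs to a family of near-identical copies, so reads may be shared between them, which was not tested.

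Counting also the Ctr values that chose them, only 12 of the 313 events (3.83%) had no library at an end of the scale, against 2000 of the 4658 joined events (42.9%). Klrc2, an activating receptor of natural killer cells, had the largest Ctr difference among them, with 0.0309 and 0.794 in Ctr, 0.405 and 0.794 with the Raver2 hairpins and 0.894 and 0.795 with the Setd2 hairpins. Ctr library 1 lay below the other 5. Event 4 of Inpp4a, a phosphoinositide phosphatase (chromosome 1, 37299865 to 37410736, mm10), had 0.229 and 0.876 in Ctr, 0.338 and 0.914 with the Raver2 hairpins, and 0.470 and 0.872 with the Setd2 hairpins. In this event the first library of every group was the lower one. Of the 4 events of Inpp4a 3 were discordant, and event 2 was the complement of event 1.

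Event 4 of Gpr64, an adhesion receptor now named Adgrg2, had 0.654 and 0.0121 in Ctr and 0.441 to 0.544 in the knockdown libraries, so that Ctr library 2 was the low one. Event 2 of Nrp2, a receptor for semaphorins and VEGF, had 0.107 and 0.734 in Ctr and 0.486 to 0.920 in the knockdown libraries. Event 1 of Gimap4, a GTPase of lymphocytes, had 0.784 and 0.239 in Ctr and 0.215 to 0.372 in the knockdown libraries, where Ctr library 1 was the high one. Event 2 of Camk2g, a calmodulin-dependent kinase, had 0.282 and 0.859 in Ctr, 0.326 and 0.574 with the Raver2 hairpins and 0.336 and 0.837 with the Setd2 hairpins.

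Genes with several discordant events were a minority. Of the 229 genes, 173 held a single discordant event and 19 held 3 or more. Of the 138 genes with several joined events and a discordant one, 21 had all of them discordant. The gene 2210408F21Rik had 6 of 6. Its event 1 had 0.0561 and 0.829 in Ctr, 0.0433 and 0.851 with the Raver2 hairpins, and above 0.99 with both Setd2 hairpins, so the Raver2 hairpins lay near the control of the same number. Gpr115, an adhesion receptor of keratinocytes, had 5 of 6, all of them below 0.01 in Ctr library 1, 0.917 or more in Ctr library 2, and at most 0.108 in the knockdown libraries. Ano4, of the anoctamin family, had 4 of 4, which were equal or complementary and count as 1 measurement. Adora1, the adenosine A1 receptor, had 4 of 6, and its event 1 was above 0.99 in Ctr library 1 and below 0.01 in the other 5.

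Genes with a discordant event had a mean of 2.68 joined events, against 1.65 in the other genes. In GENCODE M21, which matched 2673 of the 2685 genes, both had a median of 7 annotated transcripts. Median gene lengths were 29.3 and 32.4 kb. The share of events that were discordant was 5.43% in genes with 1 event and 10.9% in genes with at least 5. In genes with several events, which hold 222 of the 313 discordant events, libraries were matched by order alone. Another order in a library would also give discordant events, and its part in these shares was not tested.

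The comparison between the knockdowns asked which events differed between the Raver2 and Setd2 libraries. It was fitted to the 4 knockdown libraries alone, so that nothing the rule used entered it. The 313 events were chosen for differing between 2 Ctr libraries with the same target, and the error of this fit leaves that spread out. Whether a called event responds to a knockdown, or differs between libraries without one, was therefore not tested. Rtn3, a reticulon of the endoplasmic reticulum, Kcnh1, a neuronal potassium channel, Muc15, a membrane mucin, Senp8, a protease of NEDD8, and Rnf32, a RING finger gene of testis, stood near opposite ends of the scale in the 2 knockdowns. Of the 313 events, 15 passed the test (limma, adjusted p under 0.05), 6 higher and 9 lower under Raver2 than under Setd2 knockdown. That is 4.79%, against 0.988% of all 4658 events, of which 20 were higher (0.429%) and 26 lower (0.558%). At an unadjusted p under 0.05, 34 of the 313 passed (10.9%), against 6.91% of all. The 15 events are 13 separate measurements in 9 genes. The median absolute difference between the knockdowns was 0.127 over the 313 events and 0.0261 over all events.

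Event 6 of Rtn3 (chromosome 19, 7425901 to 7483281, minus strand, mm10) had above 0.99 with both Raver2 hairpins and below 0.01 with both Setd2 hairpins, a difference of 0.997 ± 0.0429 (SE, limma, adjusted p = 0.0491). In Ctr, event 6 of Rtn3 had 0.0133 and above 0.99, so each knockdown matched another control library, and its event 1 was the complement. The event of Kcnh1 had below 0.01 and above 0.99 in Ctr, above 0.99 with both Raver2 hairpins and at most 0.0138 with the Setd2 hairpins. Muc15 had above 0.99 and below 0.01 in Ctr, below 0.01 with the Raver2 hairpins and above 0.99 with the Setd2 hairpins. Event 5 of Senp8 had above 0.99 and below 0.01 in Ctr, above 0.99 with the Raver2 hairpins and at most 0.0220 with the Setd2 hairpins. Event 1 of Rnf32 had below 0.01 and above 0.99 in Ctr, above 0.99 and 0.975 with the Raver2 hairpins, and below 0.01 with the Setd2 hairpins.

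Event 5 of Dcstamp, a membrane protein needed for fusion of osteoclasts, had 0.637 and below 0.01 in Ctr, below 0.01 with the Raver2 hairpins and above 0.99 with the Setd2 hairpins. Event 6 of Nfatc2, a transcription factor of T cell activation, had below 0.01 and 0.871 in Ctr, below 0.01 with the Raver2 hairpins, and 0.970 and 0.964 with the Setd2 hairpins.

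The remaining 2 genes had intermediate values. Event 2 of Daam1, a formin that assembles actin filaments (chromosome 12, 71831078 to 71992333, mm10), had 0.827 and 0.254 in Ctr. It had 0.745 ± 0.0104 (SD, n = 2) with the Raver2 hairpins and above 0.99 with both Setd2 hairpins. The difference was -0.255 ± 0.00769 (SE, limma, adjusted p = 0.0491). Event 1 of Acsm3, a mitochondrial acyl-CoA synthetase, had below 0.01 and above 0.99 in Ctr. It had below 0.01 with both Raver2 hairpins and 0.301 ± 0.0138 (SD, n = 2) with the Setd2 hairpins. All 15 events had the same adjusted p of 0.0491 and so lay at the edge of the threshold. None of the 313, and none of all 4658 events, passed in the fits that used the hairpin number as a block or left out Setd2 sh1 or Setd2 sh2. In fractions simulated for this comparison, 34 of 234 calls were of unchanged events (14.5%), a larger share than the threshold allows. The simulated spreads included that between the Ctr libraries.

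Against Ctr, 0 of the 313 events passed for either knockdown in limma over all 6 libraries, while 113 of all events (2.43%) passed for Raver2 and 104 (2.23%) for Setd2 knockdown. At an unadjusted p under 0.05, 4 and 6 of the 313 were below it, against 12% and 11.6% of all events. The spread between the Ctr libraries that chose these events enters the error of both tests, so nothing is read from these counts. The 2 comparisons share both Ctr libraries.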

How the data were processed

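Deposited values were fractions, the authors' inclusion frequencies of splicing events per gene symbol, from 0 to 1. Per the submitters' processing notes, Trimmomatic 0.39, TopHat2, Cufflinks and mm10 were used, with no role or order given. The formula of the frequency and any coverage filter were not stated there. Per library, 4777 to 4949 events were listed. Across genes with several events, fractions of 2 libraries correlated at 0.742 to 0.802 in the same order and at 0.0863 to 0.133 when shifted by a place.

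Fractions were fitted with limma 3.58.1 (R 4.3.3), with a mean per group, a variance trend, two-sided contrasts and Benjamini-Hochberg adjustment over 4658 events at 0.05. The knockdowns were compared on 4 libraries, each knockdown and Ctr on all 6. The fit of the knockdowns was tested on fractions simulated from the real means and spreads, with 200 of 4658 events changed. The means were those of the 4 knockdown libraries, while the spreads pooled all 3 groups. The spread between the Ctr libraries, which chose the discordant events, thus entered the simulated fractions but not the real fit. In the first design, with shifts of 0.4 in events of SD under 0.05 and mean 0.05 to 0.95, it called no event, though all 200 had an unadjusted p under 0.05. An easier design was then added, with shifts of 0.6 in events of SD under 0.01. There it called all 200, and 34 unchanged events as well. The test itself was left as planned. The designs differed in shift, SD and mean at once, so no size limit is read from them, and in the second the share of false calls was above the threshold. Shares of discordant events were counted with Python 3.11.15 and pandas 2.3.3, with no test. Gene positions came from GENCODE M21, 75 through an older symbol.

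The members and lists were chosen with earlier results of these data known. A gene belonged to the first list whose symbol pattern it matched. Named events were, 1 per gene: up to 12 discordant in all 3 groups, by the smallest difference; up to 12 with a range of at most 0.1 and a mean of 0.1 to 0.9 in the knockdown libraries; up to 12 with no library at an end; the 4 nearest on each side of the threshold; up to 4 per list by Ctr difference; up to 12 called between the knockdowns; up to 8 genes with at least 3 members; and Aire, Ptbp1, Raver1, Ptbp2, Raver2 and Setd2. Not every such event is named. Other events of a named gene, and Klrc2 as neighbour of Klrc1, were added after their values were seen.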

Additional observations from a re-analysis of the deposited data

How the results depend on the processing

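With a threshold of 0.3 in place of 0.5, 496 events were discordant in Ctr, 145 of them also between Raver2 hairpins, 135 between Setd2 hairpins and 52 in both. At 0.7 the last 3 counts were 42, 45 and 12. In genes with a single event the 4 counts were 91, 21, 19 and 3. Among the 2000 events with no library at an end of the scale (42.9% of all) they were 12, 3, 4 and 0. That setting also removes events by the Ctr values that chose the 313. Both Ctr values lay at an end in 138 of these and a single one in 144, so nothing is read from the drop. The 3 discordant between Raver2 hairpins in that setting were all of Inpp4a, its events 1, 2 and 4, and event 2 is the complement of event 1. As shares, discordance between Raver2 hairpins was 18.8% to 29.2% in the discordant events and 0.352% to 7.76% in the others over these settings.

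The share of tissue-restricted events minus that of broadly expressed events was 11.6 percentage points in Ctr, 8.04 for Raver2 hairpins and 7.95 for Setd2 hairpins. These settings were chosen after seeing the data. At a threshold of 0.3 it was 17.4 in Ctr and 11.2 for Raver2 hairpins. Among events with no library at an end it was 1.20 in Ctr, -1.0 for Raver2 hairpins, where the direction reversed, and 3.24 for Setd2 hairpins. Only 12 of those events were discordant in Ctr, so these values rest on few events and the reversal is not read as a result. That setting also uses the Ctr values that chose the 313 events, and the cause of the change was not tested.

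Raver2 against Setd2 knockdown called 46 events, 73 on the log odds scale, 0 with the replicate block, 0 among events away from the ends and 0 to 149 with a library left out. Of the 313 events, 15 were called, 0 with all 6 libraries in the fit, 0 with the replicate block, 0 away from the ends and 0 to 20 with a library left out, where 0 came from leaving out either Setd2 library. The Ctr difference that chose the 313 events enters the error of the fit with all 6 libraries, so nothing is read from that 0. Raver2 knockdown against Ctr called 113 events, 75 with the 4 libraries compared, 7 with the replicate block and 123 to 291 with a library left out. Setd2 knockdown against Ctr called 104, 0 with the 4 libraries compared, 0 with the block and 90 to 279 with a library left out. Of the 313 events, 0 to 62 and 0 to 66 were called with a library left out. The highest counts came from leaving out a Ctr library, where 5.603% to 6.25% of all events were called. That removes the spread by which the 313 were chosen, so nothing is read from them. Hairpin numbers are only labels: differences between hairpins 1 and 2 correlated at 0.0146 between the targets across events, so a call lost under the block is not read as a weaker effect.

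Of the 9 genes named between the knockdowns, all 9 passed without the variance trend, 8 on the log odds scale and 1 without either Raver2 library. The depth behind the fractions is unknown, and it limits what any difference at an end of the scale can show.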
